A study of Rattus norvegicus with 6 samples.

Results

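The subject is 10 genes that control how fast messenger RNAs are degraded, above all those with AU-rich elements: Zfp36, Zfp36l1, Zfp36l2, Zc3h12a, Khsrp, Elavl1, Tia1, Btg1, Cnot7 and Cnot1. They were chosen by symbol, and all 10 had a row among the 18286 genes of the deposited table. The cells were RBL-2H3, a rat basophilic leukemia line used as a model of mast cells. Of 6 RNA-seq libraries, 3 came from cells treated with dihydrocoumarin (DHC), a lactone related to coumarin, and 3 from control cells whose treatment label is none. Per the labels, 1 protocol covers both groups: IgE against dinitrophenyl at 50 ng/ml for 12 h, a wash, then the antigen DNP-HSA at 100 ng/ml for 4 h. The labels state neither the dose and duration of DHC nor whether control cells received IgE and antigen. They also do not say if replicate libraries stem from independent cultures, so the p-values reflect variation among 6 libraries that may be purely technical.

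AU-rich elements are short stretches of A and U, built around the pentamer AUUUA, in the 3′ untranslated regions of many short-lived mRNAs such as those of cytokines and early response genes. Proteins of the ZFP36 family bind them through a pair of CCCH zinc fingers and recruit the CCR4-NOT complex, which removes the poly(A) tail, after which the mRNA is decapped and degraded from both ends. ELAVL1 (HuR) binds similar sequences and protects the mRNA. In mast cells this machinery limits how long the mRNAs induced through the IgE receptor persist.

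With DHC, 3 of the 10 regulators fell, Zfp36l2, Zfp36l1 and Btg1, and 1 rose, Tia1. The other 6, Zfp36, Zc3h12a, Khsrp, Elavl1, Cnot7 and Cnot1, did not pass the test. The test was limma on log2(RPKM + 1) over the 10667 genes whose mean reached 1 RPKM (reads per kilobase of exon, scaled to the assigned reads of the library), with a Benjamini-Hochberg adjusted p of 0.05 as the threshold. Across all genes tested 34.5% passed, 18.4% as higher (1968 genes) and 16.1% as lower (1717 genes) with DHC. A share of 4 in 10 therefore lies near the background of this fit. Over all genes the share was 23.2% without DHC replicate 2, 25.1% without control replicate 2 and 17.3% without the 1 RPKM filter. The number of regulators past the threshold was 4 in each of these settings. Scaling libraries by trimmed means gave 1285 higher and 2114 lower genes, and without DHC replicate 2 the number of higher genes was 1201. The same 3 regulators fell and Tia1 rose under both of these. The median log2 difference was −0.02 over the 10 regulators and 0.05 over all genes tested. The median size of the difference, regardless of sign, was 0.21 over the 10 regulators and 0.19 over all genes tested. In these bulk libraries a change in a few cells and a smaller change in every cell cannot be told apart.

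The libraries held between 29190987 and 31299551 reads assigned to genes in DHC cells and between 29084976 and 34170922 in control cells. Of 10 mast cell markers found, 8 were expressed, the IgE receptor genes Fcer1a, Ms4a2 and Fcer1g among them, while the protease genes Tpsb2 and Cma1 stayed below 1 RPKM in every library. The 10 mast cell markers summed to between 727.2 and 749.7 RPKM in DHC libraries and between 1016.5 and 1045.4 RPKM in control libraries. Gata2 carried most of this gap, with a mean of 69.9 RPKM in DHC and 344.6 RPKM in control cells. The other 9 summed to between 655.9 and 679.0 RPKM in DHC libraries and between 666.2 and 712.4 RPKM in control libraries, which overlap. With DHC 4 of the 8 fell, Gata2 and Kit among them, and 1, Ms4a2, rose, though not under either other scaling. Together 62.5% of the 8 passed, against 34.5% of all genes tested. Of 10 markers of other cell types found, 8 stayed below 1 RPKM in every library, with Cd79a, Mpo and Alb at 0 in all DHC libraries and none at 0 in all 6. The exceptions were the T cell marker Cd3e, with a mean of 41.8 RPKM in DHC and 34.6 RPKM in control cells, and the epithelial marker Krt8, at 2.19 RPKM in DHC and 1.89 RPKM in control cells. Cd3e passed as higher (limma adjusted p = 0.0209), though not under either other scaling, and Krt8 did not pass (adjusted p = 0.37). The 10 of other cell types summed to between 43.6 and 46.6 RPKM in DHC libraries and between 34.2 and 40.6 RPKM in control libraries. The part of either list in the results was not tested. On the second principal component, which held 12.8% of the variance, both groups ran in the order of their replicate numbers. The libraries numbered 1 stood at 11.5 (DHC) and 12.1 (control), and those numbered 2 at −2.15 and −2.49. Those numbered 3 stood at −8.35 and −10.7. Of the 10 regulators, 7 had their highest DHC value in DHC replicate 1, so the fit was repeated without both libraries numbered 1. The log2 differences were then −1.08 for Zfp36l2, −0.60 for Zfp36l1, −0.45 for Btg1 and 0.58 for Tia1, all 4 past the threshold. None of the other 6 passed, and among them Cnot7 was at 0.0099 and Cnot1 at 0.044.

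The 250 bases upstream of the transcription start are shown for the 4 regulators that changed and for Zfp36, the member of its family that did not pass. They are RefSeq sequences of the assembly GRCr8, in which 9 of the 10 genes were matched (all but Cnot7), and read 5′ to 3′ towards the gene. Zfp36l2 is at chr6:16242372-16242621 on the plus strand, Zfp36l1 at chr6:104668691-104668940 on the minus strand, Btg1 at chr7:33227899-33228148 on the plus strand, Tia1 at chr4:120410023-120410272 on the plus strand and Zfp36 at chr1:92799109-92799358 on the minus strand. Capitals mark matches, on either strand, to the GC box GGGCGG, the TATA box TATAAA, the AP-1 site TGANTCA, the cAMP response element TGACGTCA or the GATA site AGATAA.
Zfp36l2: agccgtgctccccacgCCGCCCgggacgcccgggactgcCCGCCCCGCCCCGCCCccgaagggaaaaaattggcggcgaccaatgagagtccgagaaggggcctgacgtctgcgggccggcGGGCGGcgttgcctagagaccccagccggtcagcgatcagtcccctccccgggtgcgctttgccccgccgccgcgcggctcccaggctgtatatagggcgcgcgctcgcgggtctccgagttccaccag
Zfp36l1: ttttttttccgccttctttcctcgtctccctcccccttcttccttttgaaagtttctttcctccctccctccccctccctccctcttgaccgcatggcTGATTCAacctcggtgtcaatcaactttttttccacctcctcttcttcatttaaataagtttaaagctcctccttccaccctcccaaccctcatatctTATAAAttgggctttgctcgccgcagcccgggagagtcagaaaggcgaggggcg
Btg1: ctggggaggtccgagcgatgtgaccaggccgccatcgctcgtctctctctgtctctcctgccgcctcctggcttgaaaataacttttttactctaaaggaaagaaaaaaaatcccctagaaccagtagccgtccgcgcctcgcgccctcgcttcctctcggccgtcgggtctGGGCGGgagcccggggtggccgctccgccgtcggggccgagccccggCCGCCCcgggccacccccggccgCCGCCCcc
Tia1: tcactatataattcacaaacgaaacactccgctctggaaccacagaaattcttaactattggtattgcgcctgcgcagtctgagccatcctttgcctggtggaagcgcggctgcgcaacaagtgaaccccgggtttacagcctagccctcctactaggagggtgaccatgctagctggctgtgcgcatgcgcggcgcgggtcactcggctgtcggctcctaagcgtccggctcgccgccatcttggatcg
Zfp36: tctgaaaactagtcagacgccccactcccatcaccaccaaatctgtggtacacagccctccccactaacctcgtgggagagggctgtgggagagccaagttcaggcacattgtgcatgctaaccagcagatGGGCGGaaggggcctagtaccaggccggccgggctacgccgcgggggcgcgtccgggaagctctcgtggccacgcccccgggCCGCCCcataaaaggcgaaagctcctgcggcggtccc

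The 5 windows differed in base composition and in these matches. The Zfp36l2 window was 73.6% G or C and held 5 GC boxes, of which 3 overlap one another, whereas the Zfp36l1 window was 50.4% G or C and held no GC box. The Zfp36l1 window held a TATA box whose first base lies at −54 and an AP-1 site at −152, counted back from the start. The Btg1 window held 3 GC boxes and the Zfp36 window 2, and the Tia1 window held none of the 5 motifs. Among 33469 rat windows of the same length, 30.5% held a GC box, 12.9% a TATA box, 6.34% an AP-1 site, 1.59% a cAMP response element and 10.3% a GATA site. No motif was shared by the 3 genes that fell, and neither the GATA site nor the full cAMP response element occurred in any of the 5 windows.

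Zfp36l2 and Zfp36l1 encode zinc finger proteins that bind AU-rich elements and hand the mRNA to the deadenylases. Zfp36l2 stood at 12.4, 11.1 and 11.1 RPKM in the 3 DHC libraries, against 23.9, 23.1 and 26.3 RPKM in the 3 control libraries. The highest DHC value was far below the lowest control value, and the groups did not overlap. The means were 11.6 ± 0.754 RPKM with DHC and 24.5 ± 1.64 RPKM in control cells (SD, n = 3 each), a 2.12-fold lower level with DHC. The log2 difference was −1.02 ± 0.07 (SE, limma adjusted p = 6.77e-05), and 2.57% of all genes tested differed by more in either direction. On the rat build Rnor_6.0, Zfp36l2 spans chromosome 6, 7417425 to 7421456, on the minus strand, and the values cover its 2 annotated exon blocks.

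Zfp36l1 stood at 11.6, 11.1 and 10.1 RPKM in DHC libraries, against 15.6, 16.0 and 17.2 RPKM in control libraries. All DHC values lay below all control values, as for Zfp36l2, but the gap was narrower. The mean was 10.9 ± 0.749 RPKM with DHC and 16.3 ± 0.877 RPKM in control cells, 1.49-fold lower with DHC, with a log2 difference of −0.53 ± 0.07 (SE, limma adjusted p = 0.0013). The gene lies on the same chromosome as Zfp36l2, at 103308045 to 103313074 on the minus strand. Across the 10667 genes 21.6% had DHC values that all lay below the control values and 28.1% values that all lay above, 49.7% in all, and 5 of the 10 regulators were of either kind.

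Zfp36 encodes tristetraprolin, the founding member of the family, whose own mRNA carries AU-rich elements. It stood at 9.34, 7.97 and 7.08 RPKM in DHC libraries, against 6.23, 6.31 and 7.11 RPKM in control libraries. The groups overlapped by a small margin, as the lowest DHC value was just below the highest control value. The log2 difference was 0.27 with a 95% interval, not adjusted for the number of genes, of 0.03 to 0.51 (limma adjusted p = 0.0836). Without DHC replicate 3, whose value was the lowest of its group, the adjusted p was 0.0461, and without both libraries numbered 1 the difference was 0.15 (adjusted p = 0.317). Zfp36 spans chromosome 1, 85380095 to 85382607. A gene annotated on the opposite strand, RGD1562402, overlaps this span but none of its exons.

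RPKM values are per length, so the 3 family mRNAs can be added. Their sum was 33.4, 30.2 and 28.3 RPKM in DHC libraries, against 45.7, 45.4 and 50.6 RPKM in control libraries. The family total was therefore lower in all 3 DHC libraries than in any control library, with means of 30.6 ± 2.56 and 47.3 ± 2.94 RPKM (SD, n = 3 each), 1.54-fold lower with DHC. The share of each gene in this sum follows from the 3 levels given above and is not a separate result. A fall of Zfp36l1 and Zfp36l2 raises the share of Zfp36, whose own level did not pass the test. Zfp36 made up 26.5% ± 1.49 of the sum with DHC and 13.9% ± 0.209 in control cells, Zfp36l1 35.7% ± 0.955 and 34.4% ± 0.637, and Zfp36l2 37.8% ± 1.25 and 51.7% ± 0.697. The shares of Zfp36 and of Zfp36l2 did not overlap between the groups, while those of Zfp36l1 did. Exact two-sided permutation tests of the sum and of the shares of Zfp36 and Zfp36l2 gave p = 0.1, the smallest that 3 libraries against 3 can give, and p = 0.2 for the share of Zfp36l1. Over the 19 such sums and shares computed for 5 families, the Benjamini-Hochberg adjusted values were 0.119 and 0.211, so none could pass in this design. In control cells Zfp36l2 was the most abundant of the 3 and Zfp36l1 next, with no overlap, whereas in DHC cells the ranges of these 2 overlapped.

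**Figure D1:**
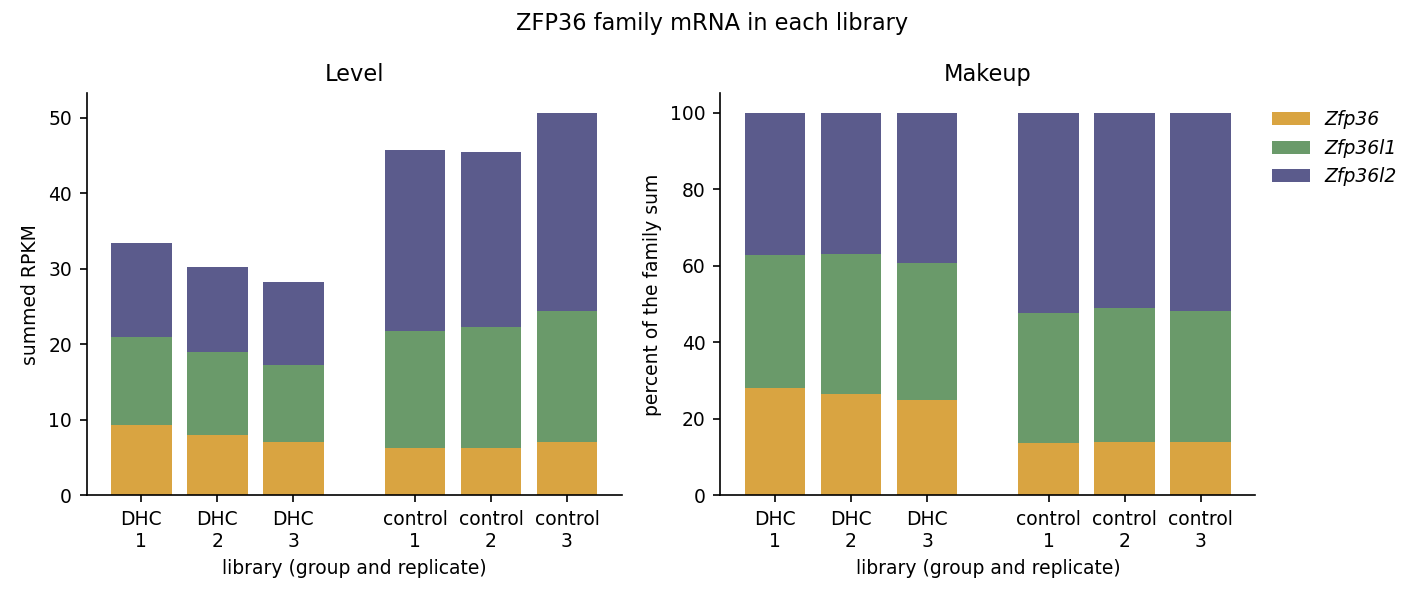
Summed RPKM of Zfp36, Zfp36l1 and Zfp36l2 in each library (left) and the percent of that sum held by each gene (right); bars are single libraries, DHC first. The sum lies between 28.3 and 33.4 RPKM in DHC libraries and between 45.4 and 50.6 RPKM in control libraries, and the Zfp36 share is larger in every DHC library.

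Zc3h12a encodes Regnase-1, an endonuclease that cuts stem-loops in the 3′ ends of inflammatory mRNAs. It was the least abundant of the 10, at 1.79, 1.65 and 2.14 RPKM in DHC libraries, against 2.00, 2.28 and 2.04 RPKM in control libraries. These values rest on 151, 147 and 178 reads with DHC and 174, 189 and 198 reads in control cells. The groups overlapped, and the log2 difference of −0.12 had a 95% interval of −0.38 to 0.14 (limma adjusted p = 0.424). Zc3h12a spans chromosome 5, 143111074 to 143120165. Its relative Zc3h12c was more abundant and fell, to 23.0 ± 0.865 RPKM with DHC, against 34.0 ± 1.85 RPKM in control cells (log2 difference −0.54, limma adjusted p = 0.000453).

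Khsrp encodes KSRP, a protein that binds AU-rich elements through KH domains and recruits decay enzymes. Its level was 34.2, 36.0 and 36.2 RPKM in DHC libraries, against 31.9, 33.2 and 31.1 RPKM in control libraries. Every DHC value was above every control value, but the shift was small. The log2 difference was 0.14 with a 95% interval of 0.02 to 0.26 and did not pass (limma adjusted p = 0.0641), and it was 0.08 under scaling by trimmed means (adjusted p = 0.289). Khsrp spans chromosome 9, 10013854 to 10022924.

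Elavl1 encodes HuR, the stabilizing counterpart of the decay factors. It was at 14.5, 11.9 and 12.5 RPKM in DHC libraries, against 15.3, 13.8 and 12.0 RPKM in control libraries. The ranges almost coincided, and the library numbered 1 was the highest in both groups. The log2 difference was −0.07 with a 95% interval of −0.31 to 0.17 (limma adjusted p = 0.645). Elavl1 spans chromosome 12, 2461502 to 2502432. The neuronal relatives Elavl2, Elavl3 and Elavl4 had at most 6 reads in any library.

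Tia1 encodes a protein that binds U-rich and AU-rich sequences, represses translation and gathers in stress granules, and it was the 1 regulator that rose. It stood at 8.35, 6.99 and 7.55 RPKM in DHC libraries, against 4.14, 4.76 and 4.31 RPKM in control libraries. No DHC value came near the control range. The means were 7.63 ± 0.686 and 4.40 ± 0.322 RPKM (SD, n = 3 each), 1.73-fold higher with DHC, and the log2 difference was 0.67 ± 0.09 (SE, limma adjusted p = 0.00123). Without both libraries numbered 1 it was 0.58 (adjusted p = 0.0108). Tia1 spans chromosome 4, 118207862 to 118235218, with 15 annotated exon blocks. Its close relative Tial1, which encodes TIAR, was more abundant, at 42.2 ± 1.72 RPKM with DHC and 39.3 ± 0.776 RPKM in control cells, and did not pass (log2 difference 0.10, adjusted p = 0.156). Tia1 therefore made up 15.3% ± 0.633 of the pair with DHC and 10.1% ± 0.577 in control cells, with no overlap (exact two-sided permutation p = 0.1, the smallest possible).

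Btg1 encodes an antiproliferative adaptor that binds the CAF1 deadenylases and was the most abundant of the 10 regulators in both groups. It stood at 50.3, 48.5 and 46.3 RPKM in DHC libraries, against 65.0, 63.3 and 66.6 RPKM in control libraries. The groups were clearly separated and the values within each were close, so a modest difference passed the test. The means were 48.4 ± 2.02 RPKM with DHC and 65.0 ± 1.61 RPKM in control cells, 1.34-fold lower with DHC, with a log2 difference of −0.42 ± 0.05 (SE, limma adjusted p = 0.000676). Btg1 spans chromosome 7, 37812831 to 37815088. Of the other adaptors of this kind 3 were tested and 1 passed, Btg3, which fell to 13.0 ± 0.92 RPKM with DHC, against 19.0 ± 1.52 RPKM in control cells (log2 difference −0.51, limma adjusted p = 0.00248). Tob1 (adjusted p = 0.772) and Tob2 (0.378) did not pass, and Btg2 had 12, 0 and 4 reads in DHC libraries against 14, 26 and 8 in control libraries. The 5 BTG and TOB genes together summed to 85.8 ± 4.17 RPKM with DHC and 109.9 ± 3.77 RPKM in control cells.

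Cnot1, the scaffold of the CCR4-NOT complex, and Cnot7, one of its CAF1 deadenylases, carried no detectable difference. Cnot1 stood at 29.9, 30.5 and 30.8 RPKM in DHC libraries, against 30.5, 29.6 and 29.8 RPKM in control libraries. It was the most tightly measured regulator, with coefficients of variation of 1.48% in DHC and 1.58% in control cells, and its log2 difference of 0.02 had a 95% interval of −0.09 to 0.13 (limma adjusted p = 0.761). Cnot7 stood at 11.1, 9.73 and 9.92 RPKM in DHC libraries, against 10.4, 9.56 and 9.94 RPKM in control libraries. Its groups overlapped too, with a log2 difference of 0.04 and an interval of −0.14 to 0.21 (adjusted p = 0.744). The sign of both differences turned under scaling by trimmed means (−0.044 for Cnot1 and −0.026 for Cnot7). Cnot1 spans chromosome 19, 9668186 to 9761605, where another annotated gene, AABR07042803.2, lies on the same strand without overlapping its exons, and Cnot7 spans chromosome 16, 54899452 to 54918613.

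**Figure D2:**
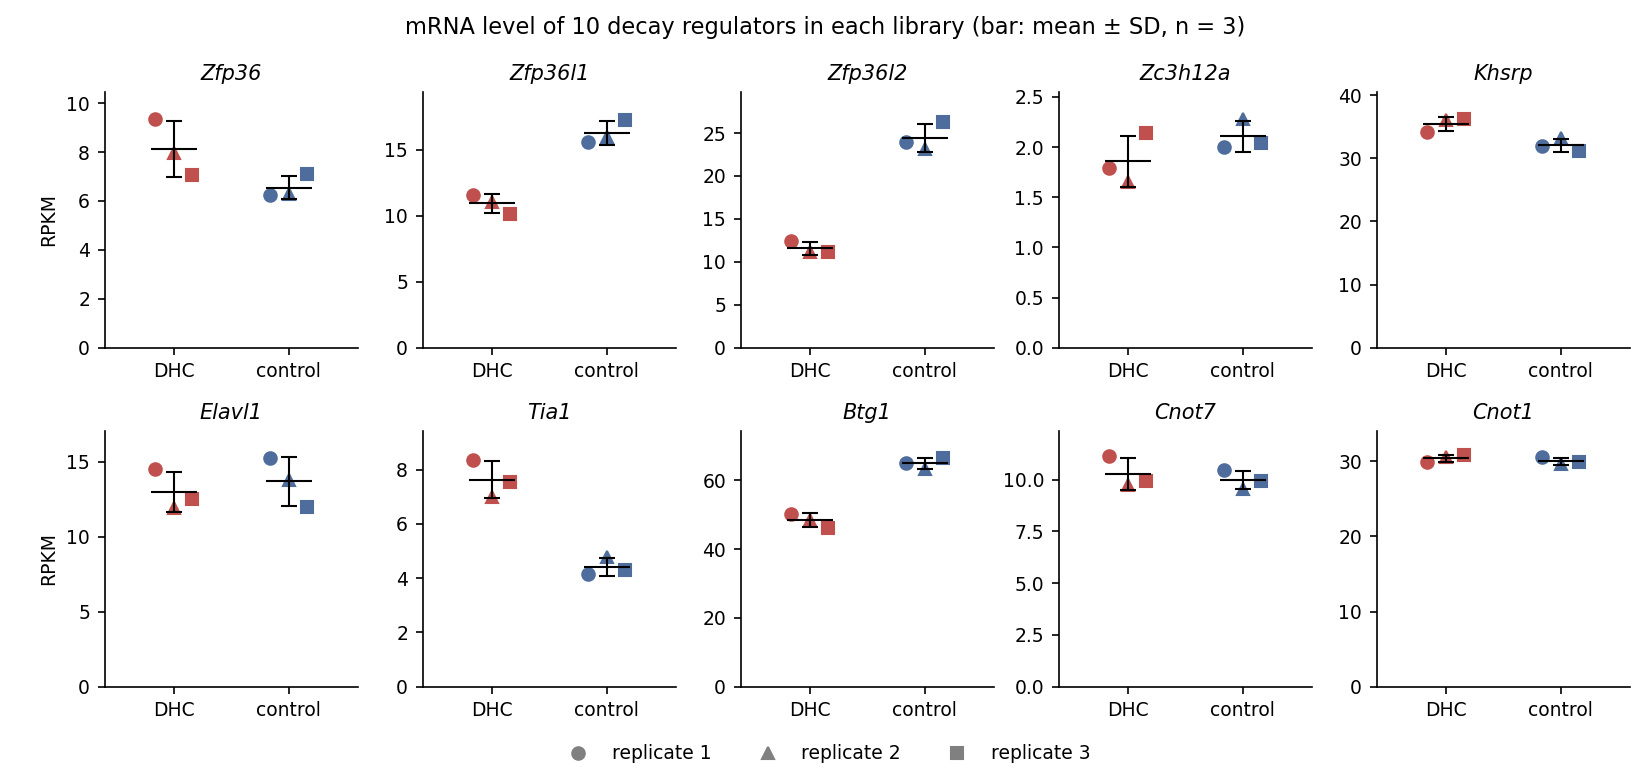
RPKM of each of the 10 regulators in every library, with DHC left of control in each panel; points are libraries, shaped by replicate number, and bars give the mean ± SD (n = 3). Zfp36l1, Zfp36l2 and Btg1 are lower and Tia1 is higher in all 3 DHC libraries, whereas Cnot1 and Cnot7 overlap between the groups.

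**Figure D3:**
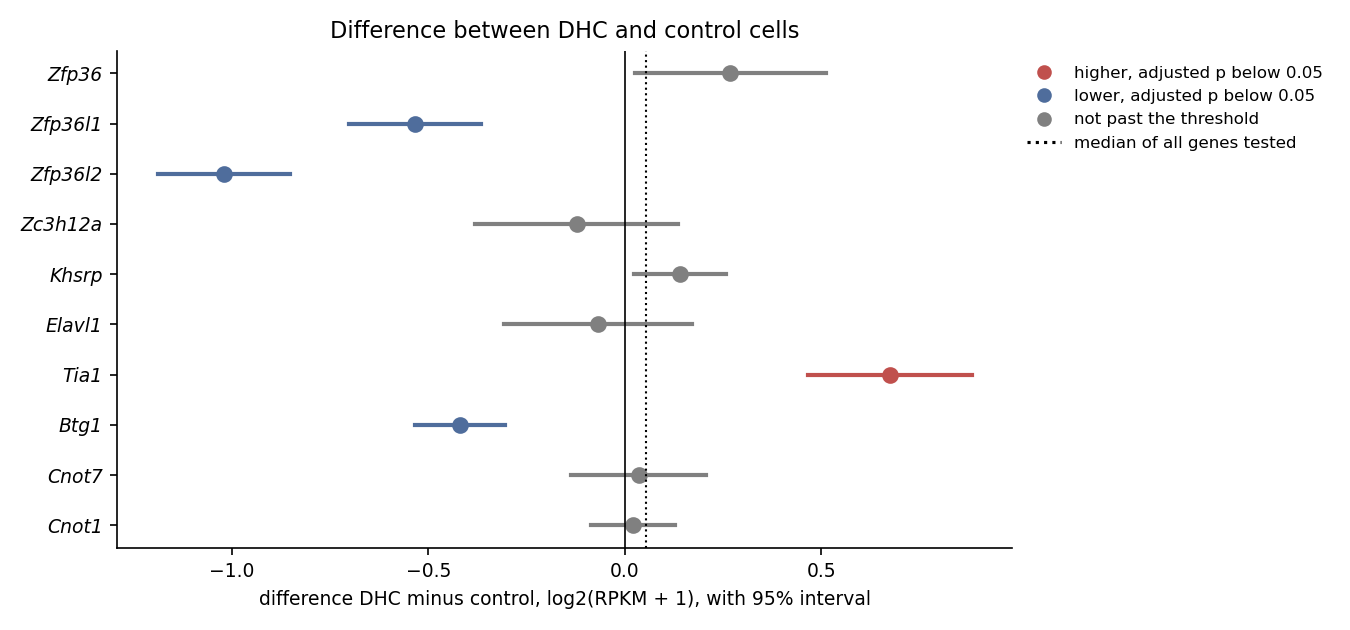
Difference between DHC and control on the log2(RPKM + 1) scale for each regulator, with its 95% interval; blue marks lower, red higher and grey not past the threshold, and the dotted line is the median of all genes tested (0.05). Values run from −1.02 for Zfp36l2 to 0.67 for Tia1.

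In order of level per length, control cells had Btg1 first, then Khsrp, Cnot1, Zfp36l2, Zfp36l1, Elavl1, Cnot7, Zfp36, Tia1 and Zc3h12a, and no 2 neighbours in that order overlapped. In DHC cells Btg1, Khsrp and Cnot1 kept the first 3 places and Zc3h12a the last. Between them, the ranges of Elavl1 and Zfp36l2, of Zfp36l2 and Zfp36l1, of Zfp36l1 and Cnot7, and of Zfp36 and Tia1 overlapped, and no other neighbours did. Coefficients of variation lay between 1.48% and 14.0% in DHC libraries and between 1.58% and 11.9% in control libraries. The 3 regulators that fell each have 2 annotated exon blocks, a structure also found in Zfp36, which did not pass. Of 603 tested genes with 2 exon blocks 17.6% fell and 13.8% rose, against 16.1% and 18.4% of all genes tested. A part of this structure in the results was not tested.

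Among all genes tested, the 5 whose log2(RPKM + 1) over the 6 libraries followed Zfp36l2 most closely, the regulator with the lowest p, were A3galt2, Cnn2, Nfatc2, Prdx5 and Akap13. Their Pearson correlations with Zfp36l2 lay between 0.998 and 0.999. Since the 6 libraries form 2 groups, such values describe genes that are lower with DHC and vary little within a group relative to that fall. A3galt2 fell the furthest of the 5, to 3.03 ± 0.272 RPKM with DHC, against 10.9 ± 0.909 RPKM in control cells.

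The wider decay machinery was read from 8 lists, which held 83 tested genes besides the 10 regulators. Of these, 19 rose and 7 fell, 26 in all or 31.3%, against 34.5% of all genes tested, and the median log2 difference was 0.12, against 0.05. By list, 22.2% of the other CCR4-NOT subunits passed, 28.6% of the deadenylase and poly(A) binding genes, 21.4% of the decapping genes, 25% of the exosome genes, 38.9% of the other binding proteins and 50.0% of the nonsense-mediated decay genes, on 7 to 18 genes each. The balance of directions depended on scaling, with 11 higher and 13 lower under trimmed means, and 16 passed without DHC replicate 2. Of 9 other CCR4-NOT subunits Cnot8, the second CAF1 deadenylase, rose to 32.0 ± 1.78 RPKM with DHC, against 26.9 ± 1.66 RPKM in control cells (limma adjusted p = 0.0237). Cnot6l, a deadenylase of the CCR4 type, fell to 4.69 ± 0.202 RPKM with DHC, against 6.06 ± 0.568 RPKM in control cells (adjusted p = 0.0291). Neither call was stable. Cnot8 missed the threshold without DHC replicate 1 or 2 or control replicate 1 or 3, and with trimmed-mean scaling (adjusted p = 0.0614), and Cnot6l missed it without any 1 of the DHC libraries or without control replicate 1 or 3. The list had 0 calls by limma without DHC replicate 1, DHC replicate 2 or control replicate 3, 1 without DHC replicate 3, and 3 without control replicate 1. Of 7 other deadenylase and poly(A) binding genes 2 rose, Paip1, which encodes a partner of the poly(A) binding protein (1.28-fold), and Pabpc4 (1.11-fold). Pabpc4 missed the threshold under trimmed means (adjusted p = 0.277) and without DHC replicate 2 or 3 or control replicate 1 or 2.

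Decapping and 5′-to-3′ decay genes moved both ways, with 2 lower and 1 higher of 14 tested. Edc3, an enhancer of decapping, fell to 16.8 ± 0.796 RPKM with DHC, against 24.3 ± 0.823 RPKM in control cells (limma adjusted p = 0.000587), and Patl1, a scaffold of decapping, fell 1.22-fold. Ddx6, a helicase of processing bodies, rose 1.19-fold. Under trimmed means 5 genes of this list were lower. Of 16 exosome genes 4 rose, led by Exosc2 (1.31-fold), Wdr61 (1.21-fold) and Exosc3 (1.15-fold), of which Exosc3 missed the threshold under trimmed means (adjusted p = 0.0945) and without DHC replicate 2 or 3 or control replicate 2 or 3, and Wdr61 without DHC replicate 2. The exosome list had 1 call without DHC replicate 2, and 2 without DHC replicate 3 or control replicate 3. Of 10 nonsense-mediated decay genes 4 rose and 1 fell, among them Upf3b (1.21-fold), Smg9 (1.32-fold) and Smg8 (1.30-fold), and 3 passed without DHC replicate 2, DHC replicate 3 or any 1 of the control libraries.

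Of 18 other tested genes for proteins that bind AU-rich elements or 3′ untranslated regions, 6 rose and 1 fell. Ptbp1, which encodes a pyrimidine-tract binding protein, stood at 74.7, 75.2 and 78.0 RPKM in DHC libraries, against 51.4, 54.3 and 51.8 RPKM in control libraries (log2 difference 0.53, limma adjusted p = 0.000161). Its values did not overlap, and neither did those of Fubp1, a relative of Khsrp, which rose 1.33-fold. Hnrnpd, which encodes the AU-rich element binding protein AUF1, fell to 155.2 ± 5.57 RPKM with DHC, against 199.7 ± 11.9 RPKM in control cells (adjusted p = 0.00228). Of 6 genes of the Regnase family and its partners Zc3h12c fell and Tnip1 rose 1.16-fold, a call that ended under trimmed means (adjusted p = 0.0771) and without DHC replicate 3 or control replicate 2. On a separate list of kinases and other proteins that act on ZFP36, 8 genes were tested. Of these 3 fell and none rose, so 37.5% passed, against 34.5% of all genes tested in either direction. As lower alone, 16.1% of all genes tested passed. Mapkapk2, the kinase MK2 that inactivates ZFP36 by phosphorylation, fell to 45.1 ± 3.08 RPKM with DHC, against 63.7 ± 5.26 RPKM in control cells (adjusted p = 0.00234). Dusp1, a phosphatase of the p38 kinase above MK2, was low and fell 2.20-fold, and Ywhaz, a 14-3-3 protein gene, fell 1.15-fold.

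**Figure D4:**
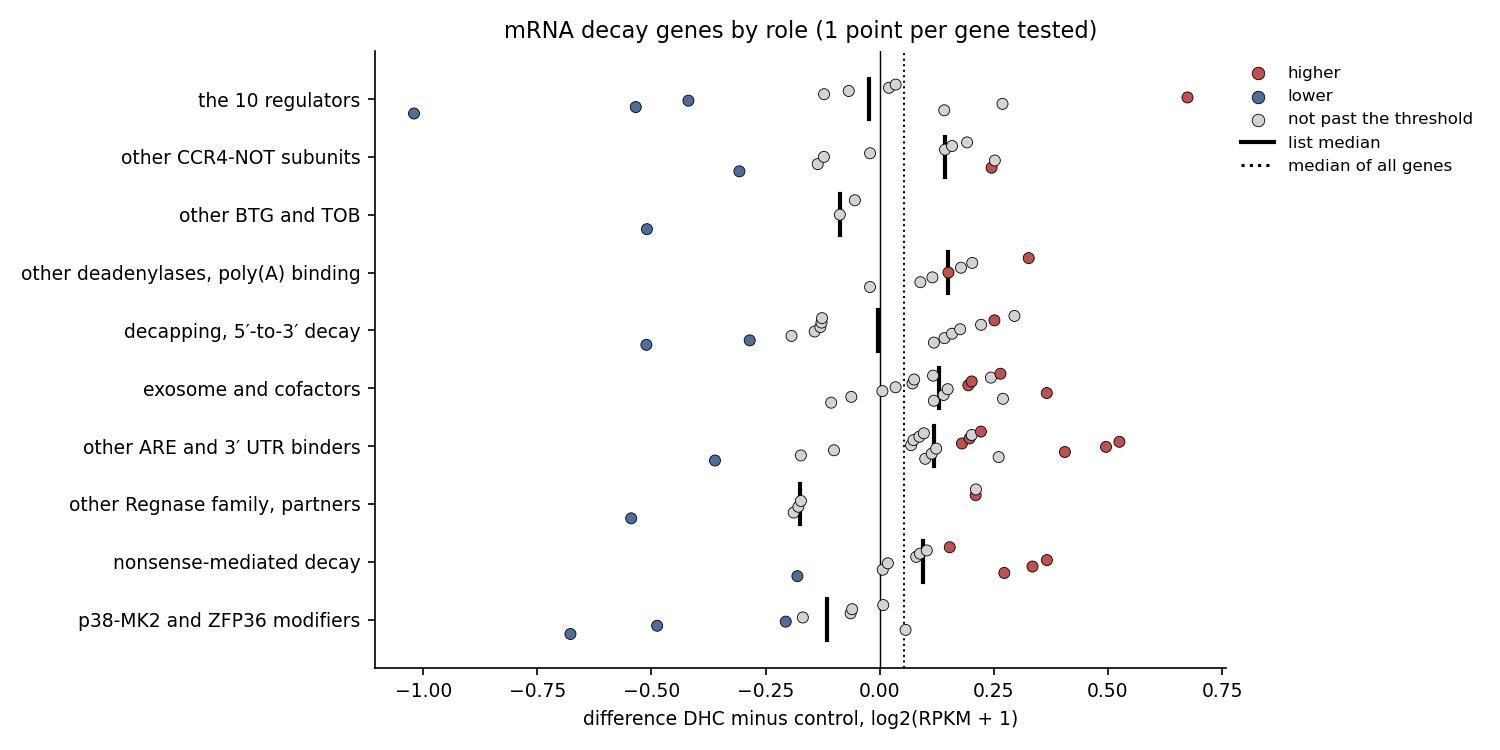
Difference between DHC and control on the log2(RPKM + 1) scale for each tested gene of the 10 regulators and of 9 lists of related genes; each point is 1 gene, black bars are list medians and the dotted line is the median of all genes tested. The 10 regulators span the widest range, from −1.02 to 0.67, and most exosome and nonsense-mediated decay genes lie above 0.

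A list of 40 genes known in mammals for AU-rich elements was read as well, of which 24 were tested. The elements were not counted in the rat mRNAs. Whether the regulators act on these mRNAs in RBL-2H3 cells was not tested. With DHC 18 of them fell and 2 rose, 83.3% in all against 34.5% of all genes tested, with a median log2 difference of −0.82 against 0.05. The list was drawn up with results of these data known and holds many activation-induced genes, so its direction is not independent evidence. The counts were 18 and 2 under both other scalings as well, and 17 and 2 without DHC replicate 2. Pim1, a survival kinase gene, stood at 6.82, 6.81 and 5.27 RPKM in DHC libraries, against 19.1, 21.4 and 22.2 RPKM in control libraries (limma adjusted p = 4.75e-05). The groups were far apart, with a 3.32-fold lower mean with DHC. Plk3, a stress-response kinase gene, fell 2.42-fold, Ier3 2.17-fold, Tnfaip3, which encodes the NF-kB inhibitor A20, 2.05-fold, and Junb 1.74-fold. Cdkn1a, the cell cycle inhibitor p21, fell 1.69-fold, and the hypoxia factor gene Hif1a 1.56-fold, to 86.1 ± 2.70 RPKM with DHC, against 133.9 ± 4.84 RPKM in control cells.

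Also among the 18 were Myc, Ptgs2, Gadd45a, Ccl2, Lif, Birc3, Nfkbiz, Nfkbia, Bcl2 and Dusp1, of which Bcl2 did not pass without DHC replicate 2 (limma adjusted p = 0.0517). The 2 that rose were Gadd45b and Irf1, a growth arrest gene and an interferon regulatory factor gene. Fos, Vegfa, Plaur and Notch1 were named after their values were seen, as the 4 that did not pass. Fos stood at 1.23 ± 0.214 RPKM with DHC and 1.37 ± 0.241 RPKM in control cells, and Vegfa at 44.7 ± 3.94 and 46.2 ± 0.228 RPKM, with intervals of −0.40 to 0.22 and −0.20 to 0.10 on the log2 scale. Of the list 8 genes lay below the filter on low values. Among them Il3, which encodes a mast cell growth factor, had 9, 0 and 4 reads in DHC libraries against 16, 10 and 28 in control libraries, and did not pass with no filter (limma adjusted p = 0.0889). Csf2 had 0, 0 and 0 reads in DHC libraries against 2, 2 and 5 in control libraries. It passed as lower with no filter (limma adjusted p = 0.0322), on these few reads. In that setting 19 genes of the list were lower and 2 higher.

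Of 12 mRNAs known for stem-loops that Regnase-1 cuts, 7 were tested, among them Zc3h12a itself. With DHC 3 (42.9%) passed, all as lower, against 34.5% of all genes tested in either direction and 16.1% as lower. These were Ptgs2, Ier3 and Nfkbiz, which are also on the AU-rich element list. The stem-loop list too was drawn up with results of these data known. None rose at the threshold in the fit above. The number of higher genes was 1 without control replicate 1, without both libraries numbered 1 and with the replicate block. It was also 1 with limma-voom, with a filter at 5 RPKM and with the correction for gene length. Nfkbiz, which encodes the atypical IkB protein IkB-zeta, was at 1.51 ± 0.254 RPKM with DHC and 3.54 ± 0.394 RPKM in control cells (limma adjusted p = 0.00155).

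**Figure D5:**
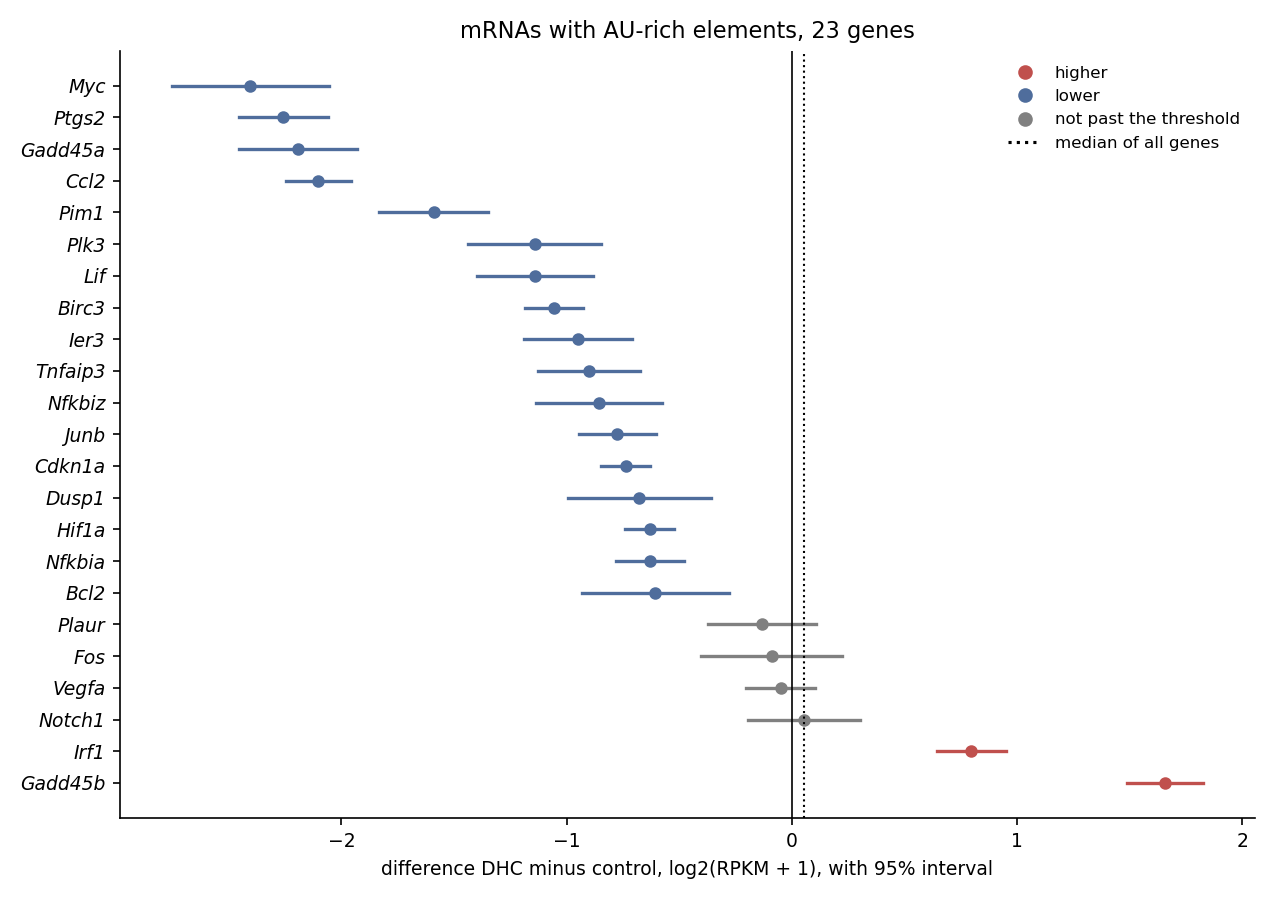
Difference between DHC and control on the log2(RPKM + 1) scale, with 95% intervals. Shown are 23 of the 24 tested genes of the list known in mammals for AU-rich elements, which were not counted in the rat mRNAs. Blue marks lower, red higher and grey not past the threshold, and the dotted line is the median of all genes tested. Of those plotted 17 genes lie below 0 past the threshold, and Irf1 and Gadd45b lie above it.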

How the data were processed

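RNA of 6 libraries was sequenced, and the authors deposited 1 table of RPKM per gene and library. The submitters' processing notes name Trimmomatic 0.36, Subread 1.5.1 with featureCounts, the build Rnor_6.0 and edgeR 3.12.1. Aligner, annotation release and strand setting: not given in the sources used here. Reads of a gene and of an overlapping antisense gene therefore cannot be told apart. The unit was found from the deposited RPKM values, since value times exon length gave whole reads, within 0.01 read, for 100% of values.

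Groups were compared with limma 3.58.1 (R 4.3.3), trended variance, on log2(RPKM + 1), a scale that understates changes of low genes. Genes with a mean under 1 RPKM were left out, the model held the group alone, and p-values were Benjamini-Hochberg adjusted over 10667 genes. N-fold values are ratios of mean RPKM, errors of means are SD (n = 3), and 95% intervals are limma's, not adjusted. Read numbers cover counting error only. The method was tested on simulated data in which few genes changed, as many up as down. That simulation does not cover the dependence on scaling seen here.

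Members and lists were chosen with earlier results of these data known. Genes named are the 10 regulators, up to 3 called genes of lowest p per list, all called genes of the AU-rich element and stem-loop lists (1 is counted but not reported here), and the 5 genes most correlated with the regulator of lowest p. Tob1, Tob2, Btg2, Tial1, Il3, Csf2, the ELAVL relatives and the markers named were added after their values were seen. Alternatives were 2 other scalings, pseudocounts of 0.1 and 0.5, no filter or 5 RPKM, limma-voom on recovered reads, a replicate block, a correction for gene length, and left-out libraries.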

Additional observations from a re-analysis of the deposited data

How the results depend on the processing

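The calls of Zfp36l2, Zfp36l1, Btg1 and Tia1 held in direction and threshold under all 16 alternatives run for them. The number of regulators past the threshold was 4, and between 4 and 5 when each library was left out in turn, with 3 lower throughout and between 1 and 2 higher. Genes higher with DHC over the whole table numbered 1968, against 1285 under scaling by trimmed means and between 1201 and 1746 without 1 library. Of the 83 other decay genes 26 passed, and between 16 and 25 without 1 library. The sign of the log2 difference turned for Cnot1 with trimmed-mean scaling (−0.0441) and with median-of-ratios scaling (−0.0347), and for Cnot7 with both (−0.0256 and −0.0167). Without 1 library Cnot7 lay between −0.0201 (DHC replicate 1 left out) and 0.069, and Elavl1 between −0.153 and 0.00878 (control replicate 1 left out). The cause was not tested. Whether libraries of the same number form pairs was not settled. Deviations from the group means correlated by 0.228, −0.0495 and 0.0828 for the pairs numbered 1, 2 and 3. Between libraries of unlike number these correlations lay between −0.183 and 0.106. The second principal component ran in the order of the replicate numbers in both groups. With the replicate block, 5 regulators passed, 2 of them higher, with Khsrp added just below the threshold (limma adjusted p = 0.04996). In that setting 40 of the other decay genes and 4333 genes in all passed. Of 41 genes that the naming rule took from the lists 34 kept their call throughout. The quasi-likelihood test planned on recovered reads was not run, and limma-voom was the count-based alternative on those reads.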
